A study of Mus musculus with 9 samples.

Results

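Complement genes of mouse lung were read from 12 probe sets of 7 genes, C1qa, C1qb, C1qc, Cfb, C3ar1, C5ar1 and Serping1. A list of 9 complement genes was sought among the 18193 genes that the platform's annotation gives to a probe set as its only symbol, and all such probe sets were kept. The other 2 listed genes, C3 and C4b, had no probe set of that kind in the annotation used and were not analysed here. All 12 probe sets lay above the limit for dim signals, which kept 27022 of 45037 probe sets.

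Right lungs of C57/BL6 (BL6), FVB/N and SV129 mice were measured on 9 one-colour arrays. Hypoxic mice had lived for 4 weeks under hypobaric hypoxia at 50 kPa (2 arrays in each strain), and normoxic mice for 4 weeks at the laboratory's own altitude, 85 kPa (1 array in each strain). No genotype other than strain, no age and no sex is given, and no label says whether an array holds 1 animal or a pool, so the p-values speak of the scatter among these arrays, part of which may be technical. Normoxia within a strain rests on a lone array, which was assumed to vary like the hypoxic pairs.

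Complement is a cascade of plasma and surface proteins that tags microbes, dying cells and immune complexes. C1q, built of A, B and C chains, recognises targets for the classical pathway and is made mainly by macrophages and dendritic cells, while most other components come from liver, with local synthesis in lung. Factor B (Cfb) supplies the protease of the alternative pathway, Serping1 encodes C1 inhibitor, which shuts off the proteases of the C1 complex, and C3ar1 and C5ar1 encode the myeloid receptors for the anaphylatoxin fragments C3a and C5a.

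The C1q chain genes stand next to each other on chromosome 4, in the order C1qb, C1qc and C1qa in RefSeq's gene table. Upstream sequence was held by the RefSeq table for 4 of the 7 genes. The 250 bases before the start of C1qb and of C1qc are shown because their signals varied together from array to array. C1qa, which also varied with C1qc, was not among those 4. Capitals mark the letters GAGGAA, a core bound by ETS factors such as PU.1 of myeloid cells, and TGCTGA, a half-site of MAF factors, on either strand. The build is GRCm38.p6, and both genes read from the minus strand.
C1qb, chr4:136886201-136886450: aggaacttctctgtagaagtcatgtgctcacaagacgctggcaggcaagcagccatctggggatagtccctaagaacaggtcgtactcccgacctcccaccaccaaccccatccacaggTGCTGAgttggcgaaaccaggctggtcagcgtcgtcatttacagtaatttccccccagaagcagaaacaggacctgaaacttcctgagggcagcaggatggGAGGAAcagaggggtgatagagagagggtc
C1qc, chr4:136892915-136893164: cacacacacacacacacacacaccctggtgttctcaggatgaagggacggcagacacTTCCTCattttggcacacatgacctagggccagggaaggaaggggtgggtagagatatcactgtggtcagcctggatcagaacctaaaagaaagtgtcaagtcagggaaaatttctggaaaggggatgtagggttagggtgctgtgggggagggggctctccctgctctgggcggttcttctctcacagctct

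GAGGAA began 30 bases before the start of C1qb and, on the other strand, 193 bases before that of C1qc. These letters were found in 23.3% of 32817 mouse promoter windows of the same length. TGCTGA lay 131 bases before the start of C1qb and was not in the window of C1qc, and 16.1% of all windows held it. In the windows of C3ar1 and C5ar1 TGCTGA lay 144 and 17 bases before the start, and GAGGAA was absent. These matches are a description of the letters only.

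Some arrays differed from the rest in kidney markers or in a control transcript, and whether this bears on the complement values was not tested. On hypoxic BL6 array 2 and the normoxic FVB/N array, 18 kidney markers averaged log2 levels of 11.41 and 12.28, against 5.98 to 6.49 on the other 7 arrays. Their summed signal was 106073 and 172529 on those arrays, and 1565 to 2598 on the others. Umod, the uromodulin gene that defines the thick ascending limb, lay at 13.62 and 14.24, against 4.21 to 6.92 elsewhere. All 9 arrays carried lung epithelium: the mean of 8 alveolar type 2 markers ran from 13.51 to 13.99 in hypoxic and from 13.45 to 13.84 in normoxic lung. The signal of the 3′ over the 5′ probe set of the control transcript Gapdh, a measure of RNA integrity, was 1.19 on hypoxic SV129 array 5 and 0.808 to 1.05 on the other 8.

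The first question was whether chronic hypoxia moved complement transcripts over the 3 strains together. It moved none past the threshold: 0 of 12 probe sets had a limma adjusted p below 0.05 (Benjamini-Hochberg over all probe sets tested), where 3.76% of all 27022 did. At an unadjusted p below 0.05 there was 1 of 12, against 22.2% of all probe sets. The differences leaned low, with 10 of 12 below 0 and a median of −0.38 on the log2 scale, against 0.04 over all probe sets, but several probe sets share a gene and the genes share cells. Some other markers were lower too: 6 of 6 adipocyte markers tested were below 0 (2 fell past the threshold, median −1.28), as were 6 of 7 alveolar macrophage markers (1 fell). Macrophage markers did not all do so. Of 15 macrophage and dendritic markers 9 were above 0 and 6 below (median 0.07), and of 11 interstitial macrophage markers 4 were above and 7 below (median −0.21), with 0 past the threshold in either list. The adipocyte and alveolar macrophage lists share the gene Fabp4. The part of these markers in the complement values was not tested. In whole lung, fewer cells of a type and less RNA per cell cannot be told apart. Levels are log2 of quantile-normalised signal plus 16, differences are hypoxic minus normoxic ± SE, and levels ± are SD.

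**Figure D1:**
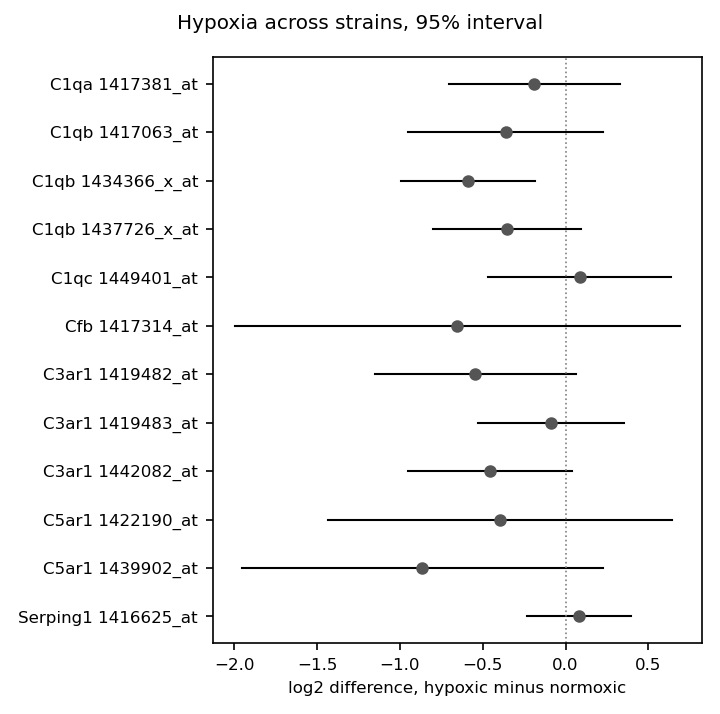
Difference between hypoxic and normoxic lung over the 3 strains (horizontal axis, log2 units) for each of the 12 probe sets (rows), as the limma estimate (point) with its 95% interval (line). The interval of 1 probe set, C1qb 1434366_x_at, lies wholly below 0, from −1.0 to −0.18, and it did not pass after adjustment over all probe sets.

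C1qa (1417381_at), the A chain, had log2 levels of 10.12 and 9.99 in hypoxic BL6 lung, 9.88 and 10.10 in hypoxic FVB/N lung and 9.91 and 8.89 in hypoxic SV129 lung, against 10.53, 9.81 and 9.67 in normoxic lung of the same strains. The groups overlapped, and only BL6 had both hypoxic arrays below its normoxic one. The difference was −0.19 ± 0.23 (adjusted p = 0.67), with a 95% interval from 0.613 to 1.26 as a fold.

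C1qc (1449401_at), the C chain, lay at 10.03 and 9.91 in hypoxic BL6, 9.10 and 9.40 in hypoxic FVB/N and 9.69 and 8.48 in hypoxic SV129 lung, against 10.01, 9.0 and 9.04 in normoxic lung. Of the 6 hypoxic arrays, 2 lay below the normoxic array of their strain. The difference of 0.09 ± 0.24 (adjusted p = 0.869) turned negative with array weights (−0.0043), without hypoxic SV129 array 2 (−0.08) and without the 2 arrays rich in kidney transcripts (−0.02).

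C1qb, the B chain, was read by 3 probe sets, and its brightest, 1417063_at, had levels of 9.79 and 9.70 in hypoxic BL6, 9.07 and 9.33 in hypoxic FVB/N and 10.03 and 8.79 in hypoxic SV129 lung, against 10.52, 9.30 and 9.61 in normoxic lung. Here 4 of 6 hypoxic arrays lay below the normoxic array of their strain, and the difference was −0.36 ± 0.26 (adjusted p = 0.455). Probe set 1434366_x_at had 8.97 and 8.78 in hypoxic BL6, 8.48 and 8.27 in hypoxic FVB/N and 9.08 and 8.40 in hypoxic SV129 lung, against 9.55, 8.85 and 9.37 in normoxic lung. It was below the normoxic array of its strain on 6 of 6 hypoxic arrays. This was the 1 of 12 probe sets with an unadjusted limma p below 0.05, against 22.2% of all. The difference was −0.59 ± 0.18 (adjusted p = 0.102). How large a share of all probe sets lay below on 6 of 6 arrays was not computed. Probe set 1437726_x_at was below on 5 of 6, by −0.35 ± 0.20 (adjusted p = 0.335). All 3 probe sets of C1qb thus gave a lower mean in hypoxic lung, and none passed. The suffix x marks probes that may also bind related sequences, so 1417063_at is the more specific reading. With arrays weighted by their fit, 1437726_x_at passed (−0.84, adjusted p = 0.0359), and it was the only member to pass for hypoxia across strains under any setting tried. With those weights 1 of 12 complement probe sets was called, against 6.92% of all.

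**Figure D2:**
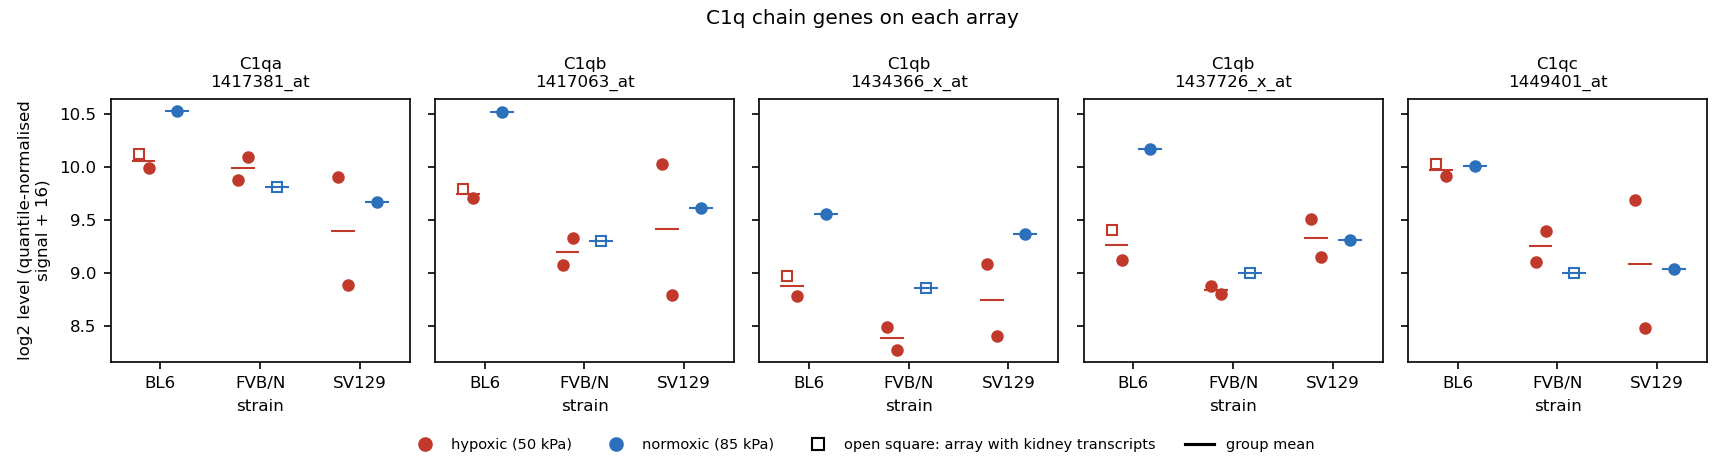
Log2 levels (vertical axis) of the 5 C1q probe sets on each array, by strain, with hypoxic arrays in red left of the normoxic array in blue; bars are group means and open squares the 2 arrays with kidney transcripts. The normoxic BL6 array is the highest of the 9 for C1qa and for all 3 C1qb probe sets, and hypoxic SV129 arrays 2 and 5 differ by 1.02 for C1qa, 1.24 for C1qb (1417063_at) and 1.22 for C1qc.

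The 3 C1q genes varied together over the 9 arrays. Between C1qa and C1qc, Pearson's r was 0.851 (2-sided exact permutation p = 0.000995, adjusted 0.0149 over 15 gene pairs) and Spearman's rho 0.917 (exact p = 0.00131, adjusted 0.0197), and r was 0.744 without the 2 arrays farthest from the median of C1qa. C1qb and C1qc gave r = 0.833 (exact permutation p = 0.00497, adjusted 0.0372) and rho = 0.833 (exact p = 0.00827, adjusted 0.062), with r = 0.694 without those 2 arrays. For C1qa and C1qb r was 0.775 (exact permutation p = 0.0173, adjusted 0.0863) and rho 0.733 (exact p = 0.0311, adjusted 0.156), but r was 0.152 without hypoxic SV129 array 5 and the normoxic BL6 array, so that relation rests on them. These r values pool strains and pressures. The permutations shuffled all 9 arrays alike, so the p-values do not set differences between strains or pressures apart from joint variation within them.

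The 2 hypoxic SV129 arrays had the widest gap in C1q. The mean log2 level of 15 macrophage and dendritic markers was 9.78 on hypoxic SV129 array 5 and 9.86 on array 2. That of 11 interstitial macrophage markers, the lung macrophages known for C1q, was 9.33 and 9.32. Array 5 had the highest 3′ over 5′ ratio of Gapdh given above. The part of macrophages and of RNA integrity in its low C1q was not tested. On the normoxic BL6 array, the highest for C1qa and C1qb, the interstitial markers stood at 10.12, against 9.32 to 9.59 on the 6 hypoxic arrays and 9.40 and 9.55 on the normoxic FVB/N and SV129 arrays. Alveolar macrophage markers were also highest there, at 10.63 for 7 markers, as were 8 adipocyte markers, with a summed signal of 15990 against 737 to 6152 on the other 8 arrays. Within BL6, the 3 probe sets of C1qb were lower in hypoxic lung by log2 differences of −0.78 ± 0.46, −0.68 ± 0.34 and −0.91 ± 0.27, with adjusted p from 0.255 to 0.538. The interstitial markers had a median difference of −0.43 in BL6, with 8 of 11 below 0 and 0 past the threshold, and all 7 alveolar macrophage and all 6 adipocyte markers tested were below 0 there with 0 past it. The part of these cells in the C1q values of BL6 was not tested. In BL6 0 of 12 complement probe sets passed, where 0.0148% of all did, and 1 of 12 had an unadjusted p below 0.05, against 12.5% of all.

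Between strains the question was whether complement transcripts differ at the same pressure. C1q levels were highest in BL6 on average, but no complement probe set passed: 0 of 12 for BL6 against FVB/N (2.07% of all probe sets passed), 0 of 12 for BL6 against SV129 (2.51%) and 0 of 12 for FVB/N against SV129 (2.89%). At an unadjusted limma p below 0.05 the counts were 4, 2 and 0 of 12, against 11.9%, 15.9% and 16.3% of all. The 4 and the 2 were all C1q probe sets.

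C1qc averaged 9.98 ± 0.06 in BL6, 9.17 ± 0.20 in FVB/N and 9.07 ± 0.61 in SV129 lung (n = 3 arrays each). All 3 BL6 arrays, at 9.91 to 10.03, lay above all 6 of the other strains. Its level was 1.76-fold higher in BL6 than in FVB/N (log2 difference 0.82 ± 0.28, adjusted p = 0.251) and by 0.92 ± 0.28 than in SV129 (adjusted p = 0.152), while the arrays of FVB/N and SV129 overlapped. Without hypoxic SV129 array 2 the difference between BL6 and SV129 was 1.24 and passed (adjusted p = 0.0464), where 1.44% of all probe sets did. That setting leaves the low array 5, at 8.48, as the only hypoxic SV129 array. The difference did not pass in the other 21 settings, and it ranged from 0.57 to 1.24 with an array left out.

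C1qb followed the same order at the top, at 10.01 ± 0.45 in BL6, 9.23 ± 0.14 in FVB/N and 9.48 ± 0.63 in SV129 lung on 1417063_at. Its 3 probe sets were higher in BL6 than in FVB/N by 0.77 ± 0.30, 0.57 ± 0.21 and 0.67 ± 0.23 (adjusted p = 0.24 to 0.329). Against SV129 they were higher in BL6 by only 0.53 ± 0.30, 0.15 ± 0.21 and 0.25 ± 0.23 (adjusted p = 0.442 to 0.773). On all 3 probe sets hypoxic SV129 array 2 lay above both hypoxic BL6 arrays. On 1437726_x_at the hypoxic mean was 9.33 in SV129 and 9.26 in BL6. C1qa averaged 10.22 ± 0.28 in BL6, 9.93 ± 0.15 in FVB/N and 9.49 ± 0.54 in SV129 lung, 0.29 ± 0.26 higher in BL6 than in FVB/N (adjusted p = 0.774) and 0.73 ± 0.26 higher than in SV129 (adjusted p = 0.222). So the chains shared BL6 as the highest strain in the mean of all its arrays, which for C1qb against SV129 did not hold on every hypoxic array. The other strains stood in opposite order for C1qa and for C1qb on 1417063_at, with overlapping arrays. On C1qb 1437726_x_at the FVB/N arrays, at 8.80 to 9.0, all lay below the SV129 arrays, at 9.15 to 9.50.

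**Figure D3:**
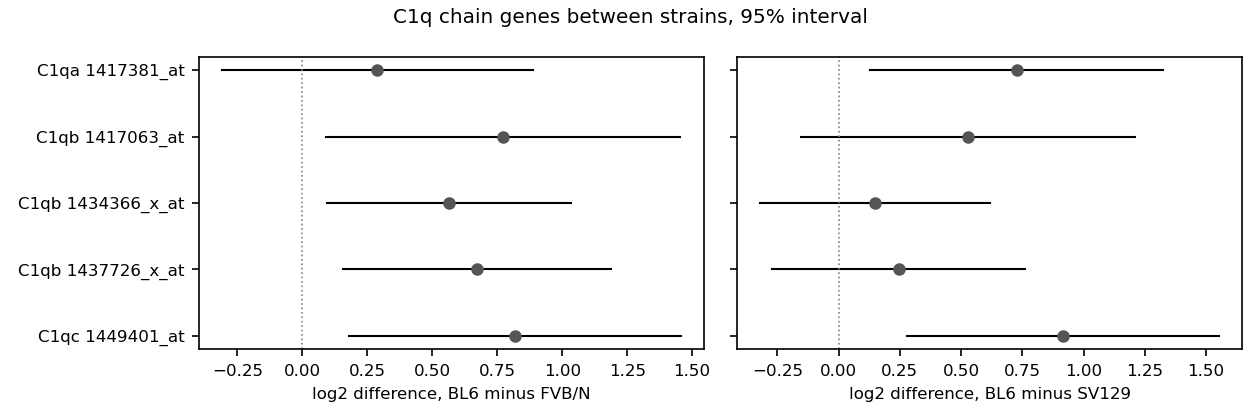
Strain differences in C1q (horizontal axes, log2 units, left BL6 minus FVB/N, right BL6 minus SV129) for 5 probe sets (rows), as limma estimates (points) with 95% intervals (lines). Against FVB/N the intervals of C1qc and of all 3 C1qb probe sets exclude 0, and against SV129 those of C1qa and C1qc do, before any adjustment for the number of probe sets.

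Macrophage markers also differed between these strains. Of 15 macrophage and dendritic markers tested, 6 were higher in BL6 than in FVB/N, 0 were lower and 9 did not pass, with a median difference of 0.63 against −0.01 over all probe sets. Their summed signal was 46770 to 49819 on BL6 arrays, 31249 to 35470 on FVB/N arrays and 48766 to 51200 on SV129 arrays. The macrophage sums of BL6 and SV129 thus overlapped. Of 11 interstitial macrophage markers 2 were higher in BL6 than in FVB/N and 1 was higher than in SV129, with 0 lower in either. Of all probe sets 2.07% and 2.51% were called there. The 11 interstitial markers had median differences of 0.41 against FVB/N (8 above 0) and 0.38 against SV129 (9 above 0). Their mean level was 9.543 to 10.123 on BL6, 9.397 to 9.405 on FVB/N and 9.323 to 9.548 on SV129 arrays. Of 7 alveolar macrophage markers 2 were higher in BL6 than in FVB/N, with a median difference of 1.19, and 1 was lower in BL6 than in SV129. The macrophage and dendritic list shares genes with both narrower lists, among them Marco and Itgax with the alveolar and Mrc1 and Cd163 with the interstitial one. The part of these cells in the C1q levels was not tested.

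Serping1 (1416625_at), the inhibitor of C1r and C1s, had levels of 13.36 and 13.44 in hypoxic BL6, 13.37 and 13.67 in hypoxic FVB/N and 13.57 and 13.70 in hypoxic SV129 lung, against 13.62, 13.03 and 13.66 in normoxic lung. Over strains the difference was 0.08 ± 0.14 (adjusted p = 0.769). Its 95% interval, from −0.23 to 0.39, was the narrowest among the 12 probe sets on the log2 scale. In FVB/N both hypoxic arrays lay above the normoxic one (0.49 ± 0.16, adjusted p = 0.106), and in BL6 both lay below it (−0.22 ± 0.16, adjusted p = 0.623). In SV129 the difference was −0.03 ± 0.16. With each array centred on its median the differences were 0.030 in BL6 and 0.30 in SV129, and on the authors' scaling alone 0.21 in SV129, so the direction in those strains turned with the scaling. The test of whether the response differs between strains gave an unadjusted limma p of 0.0365 and an adjusted p of 0.364. The low normoxic FVB/N array is among those with kidney transcripts, and without both such arrays the difference over strains was −0.10.

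C1s1, which encodes the C1s protease that Serping1 restrains, was 2.09-fold higher in hypoxic than in normoxic FVB/N lung (1.06 ± 0.18, adjusted p = 0.028), at 11.25 and 11.19 against 10.16. On BL6 and SV129 arrays it ranged from 11.57 to 11.66 in hypoxic lung, against 11.48 and 11.47 in normoxic lung. The low value is thus again that of the normoxic FVB/N array with kidney transcripts. That array was also the lowest of the 9 for fibroblast and mesothelial markers (11.12 against 11.37 to 12.04 elsewhere), endothelial markers (11.65 against 11.93 to 12.42) and acute phase genes (8.34 against 8.50 to 9.34). The same held for alveolar type 2 markers (13.45), macrophage and dendritic markers (8.95) and interferon response genes (9.11). It was not the lowest for alveolar macrophage, interstitial macrophage, neutrophil or adipocyte markers. In hypoxic FVB/N lung 3 of 8 endothelial and 3 of 9 acute phase genes tested rose, where 6.8% of all probe sets were called in either direction. The part of these genes' cells or of an acute phase in C1s1 was not tested. Its probe set, 1424041_s_at, may read more than C1s1, as its suffix marks, and the call was lost without hypoxic FVB/N array 2 or 6 (adjusted p = 0.146 and 0.138) and without the intensity trend (0.0706). The difference stayed between 1.03 and 1.15 in the 17 settings tried, and of all probe sets, 1837 of which were called in FVB/N, 0 were called without either of those arrays and 5 without the trend.

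Cfb (1417314_at), factor B, was the only listed gene past the threshold in any comparison, and it was so in FVB/N alone. Its levels were 9.95 and 8.32 in hypoxic BL6, 8.12 and 8.59 in hypoxic FVB/N and 8.57 and 8.38 in hypoxic SV129 lung, against 8.46, 11.16 and 8.31 in normoxic lung. The 2 high values are those of the arrays with kidney transcripts. The hypoxic BL6 and the normoxic FVB/N array of this pair had the highest mean levels of 10 liver markers (6.57 and 6.20). The other 7 arrays ranged from 5.12 to 5.38. The summed liver signals were 2298 and 891 on the pair, against 220 to 325. Only 1 of the 10 liver markers passed the limit for dim signals, 6.13 on the log2 scale, and both means lay near it. Liver markers were higher on the hypoxic BL6 array of the pair, and Cfb on the normoxic FVB/N array. The part of kidney transcripts or of these liver markers in Cfb was not tested. In FVB/N the difference was −2.80 ± 0.59, 6.98-fold lower in hypoxic lung (adjusted p = 0.0399), making 1 of 12 complement probe sets called there, against 6.8% of all. The call was lost without hypoxic FVB/N array 2 or 6 (adjusted p = 0.177 and 0.143), without the intensity trend (0.0789) and with no limit on dim probe sets (0.0517), while the difference stayed between −3.04 and −2.56 in the 17 settings tried. The number of all probe sets called for hypoxia in FVB/N, 1837, was 0 without either of those arrays and 5 without the trend, and it reached 3843 without hypoxic SV129 array 2.

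On the 7 arrays without kidney transcripts Cfb ran from 8.12 to 8.59. It averaged 8.40 ± 0.20 on the 5 hypoxic arrays among them and 8.39 ± 0.10 on the 2 normoxic ones, and the difference over strains was 0.03 (adjusted p = 0.964), in place of −0.65 ± 0.60 on all 9. In BL6 the difference was 0.68 ± 0.59 with both hypoxic arrays and −0.14 without hypoxic array 2. In SV129, where no array carried kidney transcripts, it was 0.17 ± 0.59 (adjusted p = 0.974). The response of Cfb did not pass the test of a difference between strains (adjusted p = 0.239). It passed without hypoxic BL6 array 5, which leaves the BL6 array rich in kidney transcripts as the only hypoxic one of its strain (adjusted p = 0.00982). No value for hypoxia in FVB/N can be had without its lone normoxic array.

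**Figure D4:**
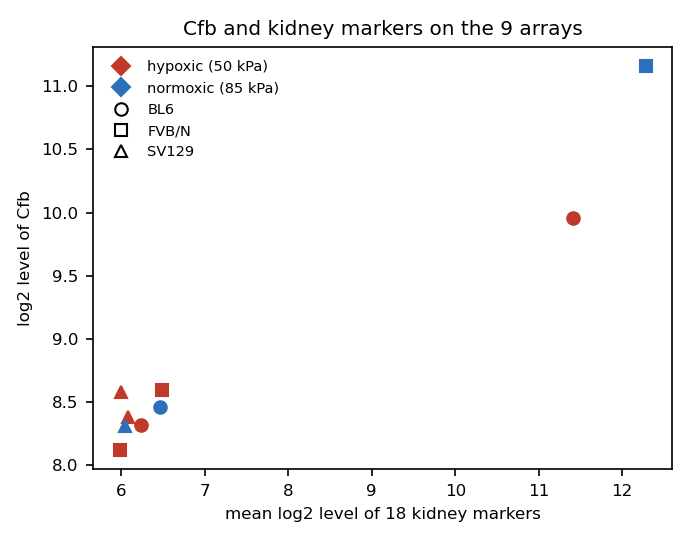
Log2 level of Cfb (vertical axis) against the mean log2 level of 18 kidney markers (horizontal axis) on each of the 9 arrays, with hypoxic arrays in red, normoxic arrays in blue and strains by symbol. Hypoxic BL6 array 2, at 11.41 and 9.95, and the normoxic FVB/N array, at 12.28 and 11.16, stand apart from the other 7, which lie between 8.12 and 8.59 for Cfb.

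C3ar1, the receptor for C3a, was dim, with mean levels of its 3 probe sets between 6.72 and 7.08 in hypoxic lung and 7.16 and 7.27 in normoxic lung, near the limit of 6.13 for dim probe sets. Probe set 1442082_at had 7.08 and 6.55 in hypoxic BL6, 6.78 and 6.35 in hypoxic FVB/N and 7.27 and 6.76 in hypoxic SV129 lung, against 7.36, 7.0 and 7.41 in normoxic lung. It was below the normoxic array of its strain on 6 of 6 hypoxic arrays, by −0.46 ± 0.22 (adjusted p = 0.262), and the share of all probe sets that did so was not computed. The difference of 1419482_at was −0.54 ± 0.27 (adjusted p = 0.272), with 5 of 6 arrays below. For 1419483_at, the brightest, it was −0.09 ± 0.20 (adjusted p = 0.832), with 4 of 6 below. The probe sets of C3ar1 thus disagreed in size, and none passed.

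C5ar1, the receptor for C5a on neutrophils and macrophages, varied more among hypoxic arrays than the other listed genes, with SDs of 0.86 and 0.87. It was dim too, with means of 6.68 (1422190_at) and 6.77 (1439902_at) in hypoxic lung. On 1422190_at, hypoxic FVB/N array 2 (5.56) and SV129 array 5 (5.65) lay below the limit of 6.13 for dim probe sets. On 1439902_at, hypoxic BL6 array 2 (5.89) and FVB/N array 2 (5.90) did. The part of dim signal in this spread was not tested. Probe set 1439902_at read 5.89 and 7.24 in hypoxic BL6, 5.90 and 7.79 in hypoxic FVB/N and 7.60 and 6.23 in hypoxic SV129 lung, against 7.76, 7.38 and 7.78 in normoxic lung. Its hypoxic pairs differed by 1.35 to 1.89, more than the difference between conditions of −0.86 ± 0.48 (adjusted p = 0.333). On 1422190_at the levels were 6.79 and 7.42, 5.56 and 7.32, and 7.33 and 5.65 in hypoxic BL6, FVB/N and SV129 lung, against 7.59, 6.47 and 7.17 in normoxic lung, a difference of −0.40 ± 0.46 (adjusted p = 0.654). Both probe sets were lower on array 2 than on the other hypoxic array in BL6 and in FVB/N, and lower on array 5 in SV129, so they shared the order within pairs.

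Neutrophil markers were read on the same hypoxic pairs. The mean of 10 markers was 9.61 on hypoxic FVB/N array 6 and 8.86 on array 2, in the order of C5ar1. On the hypoxic BL6 pair it was nearly level, at 8.69 on array 5 and 8.66 on array 2. It was 8.13 on hypoxic SV129 array 5 and 7.64 on array 2, the opposite order to C5ar1. Over strains their median difference was −0.49, with 9 of 10 below 0 and 0 past the threshold. Their part in C5ar1 was not tested.

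**Figure D5:**
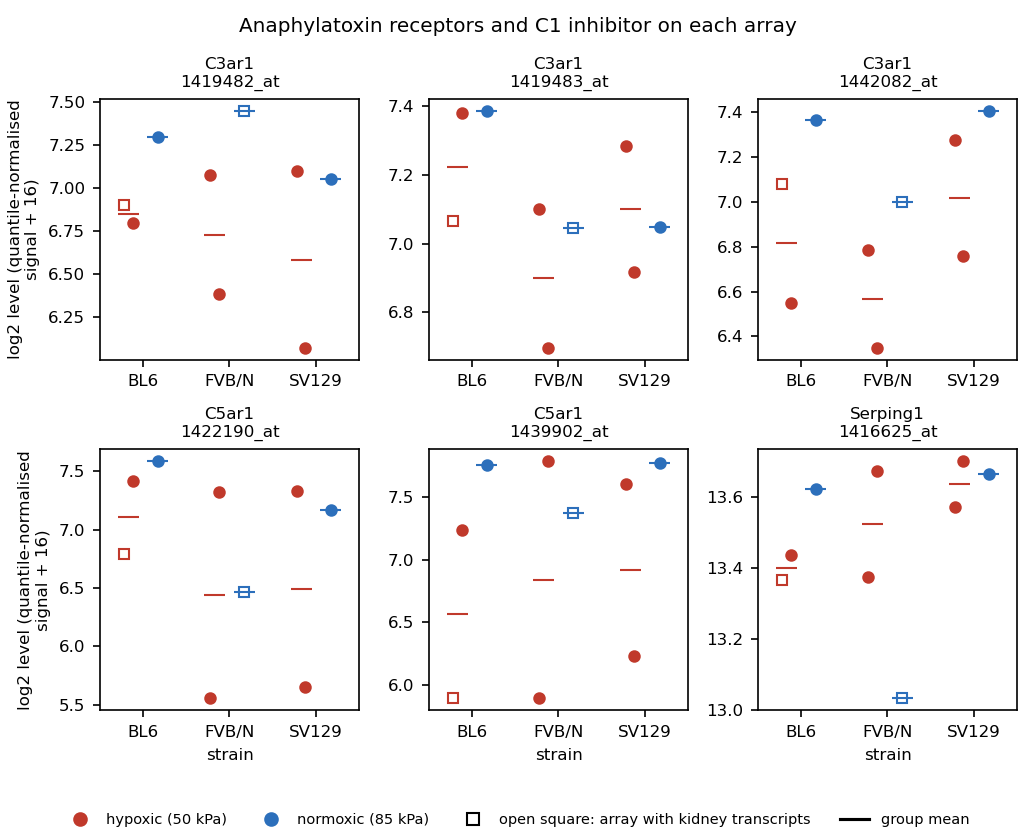
Log2 levels (vertical axes, each panel on its own scale) of the 3 C3ar1, 2 C5ar1 and 1 Serping1 probe sets on each array, by strain, with hypoxic arrays in red left of the normoxic array in blue; bars are group means and open squares the 2 arrays with kidney transcripts. On C5ar1 1439902_at the hypoxic arrays of a strain lie 1.35 to 1.89 apart, and on Serping1 the normoxic FVB/N array, at 13.03, is the lowest of the 9.

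In SV129 hypoxia moved 0 of 12 complement probe sets, and 0% of all 27022 passed there in limma (0 of 12 and 7.58% of all at an unadjusted p below 0.05). The test of a difference in response between strains likewise called 0 of 12 and 0% of all, with 2 of 12 (Cfb and Serping1) and 12.3% of all at an unadjusted p below 0.05.

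The rest of the pathway was read from a list of 48 other complement genes, of which 39 had a probe set of their own and 27 lay above the limit for dim signals, each taken by its brightest probe set. Hypoxia over strains raised 0, lowered 0 and left 27 short of the threshold, with a median difference of 0.13 against 0.04 over all probe sets, and 6 of 27 had an unadjusted limma p below 0.05, a share equal to the 22.2% of all probe sets. By role, the counts past the threshold were 0 of 8 classical and lectin pathway genes, 0 of 4 alternative and terminal pathway genes, 0 of 4 fluid-phase regulators, 0 of 4 membrane regulators and 0 of 7 receptors. Within FVB/N 1 of 27 rose, C1s1, where 6.8% of all probe sets were called. Within BL6 and SV129 0 of 27 passed (2 of 27 in each at an unadjusted limma p below 0.05), where 0.0148% and 0% of all were called.

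Hc, the gene of C5, which gives rise to C5a and starts the membrane attack complex, was the complement gene that did separate the strains. Its probe set 1419407_at read 13.13 and 13.20 in hypoxic BL6, 11.37 and 11.35 in hypoxic FVB/N and 12.58 and 13.11 in hypoxic SV129 lung, against 13.03, 10.54 and 12.31 in normoxic lung. All 3 FVB/N arrays thus lay below all 6 others. The level in BL6 was 4.10-fold higher than in FVB/N (2.04 ± 0.18, adjusted p = 0.000549), and FVB/N was 3.0-fold lower than SV129 (−1.58 ± 0.18, adjusted p = 0.00222). FVB/N is a strain known to lack active C5. A mismatch between probes and a strain's sequence lowers signal too, and was not tested. No other of the 27 genes passed between strains, and Hc did not pass for hypoxia (0.50 ± 0.16, adjusted p = 0.111).

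The genes with the most similar profile over the 9 arrays were sought among the other probe sets with a symbol, by Pearson's r, and are given as a description. For C1qb they were Ssh1 (0.944), Csf1r (0.943), the receptor that macrophages need for survival, and Etv5 (0.943). For C1qa they were Bin3 (0.959), Dipk1b (0.958) and Ptprg (0.947), and for C1qc Islr (0.969), Sh3bgrl3 (0.940) and Rbfa (0.940). The profile of Cfb was closest to Calml4 (0.998), Ak4 (0.993) and Bdh1 (0.992), where the level of Cfb itself was high on the 2 arrays with kidney transcripts alone. Serping1 was closest to Fabp5 (0.976), Fermt2 (0.966) and Zc3h10 (0.963), C3ar1 to Dnaaf4 (0.972), Lmln (0.942) and 1600014C10Rik (0.921), and C5ar1 to Abhd13 (0.940), Oga (0.936) and Lgals2 (0.925). These are the highest of all values of r for each gene, over 9 arrays and with no test.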

How the data were processed

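Lung RNA was hybridised to 9 arrays, and the deposited values are linear signal intensities, 1 per probe set and array. No source used here names the authors' software. As the deposited intensity values show, each array had been scaled by the authors to a mean of 500 after 2% of probe sets were trimmed at each end. Groups came from the titles, and pressure and duration from the descriptions. The 12 further arrays named in the design text were not analysed here.

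Signals were taken as log2(signal + 16) and quantile normalised. The 64 controls and the dimmest 40% of probe sets were left out. R 4.3.3 and limma 3.58.1 gave the differences (lmFit, eBayes with an intensity trend), with a Benjamini-Hochberg threshold of 0.05. Strain and condition were additive terms for hypoxia across strains and for strain differences, with 5 residual degrees of freedom. Effects within a strain and the test of a difference in response came from a model of 6 groups, with 3. Differences are on the log2(signal + 16) scale and understate those of dim probe sets. Correlations used exact permutation in Python 3.11.15. The number of arrays limits the precision.

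Members and lists were chosen with earlier results of these data known. Named were all listed genes, other complement genes past the threshold (at most 6 a comparison) and, for each listed gene, the 3 most alike. Of 45037 probe sets, 34945 had 1 symbol, 932 had several and 9160 none in the annotation, and gene identifiers matched RefSeq's table for all 7 genes.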

Additional observations from a re-analysis of the deposited data

How the results depend on the processing

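Under 23 other settings, 33 single differences were recomputed where they could be estimated, 652 values in all: 625 kept their direction and side of the threshold, 15 changed sign, 9 lost and 3 gained a call. Counts of complement probe sets called for hypoxia in FVB/N were 0 with no limit on dim probe sets, 0 without the trend, and 0 to 1 with an array left out. For hypoxia across strains the count was 1 with array weights, where 6.92% of all probe sets were called. The count was 0 to 1 with an array left out for BL6 against SV129 and for the difference in response between strains. Sign changes, all of differences that did not pass, were as follows. With each array centred on its median Serping1 was at 0.030 in BL6 and 0.30 in SV129, and on the authors' scaling alone at 0.21 in SV129. With array weights C1qc was at −0.0043 and Serping1 at −0.080 across strains. Without both arrays with kidney transcripts, C1qc was at −0.015, Cfb at 0.034, C3ar1 (1419483_at) at 0.029 and Serping1 at −0.10 across strains, and Cfb at −0.14 in BL6. With an array left out, the ranges were −0.077 to 0.25 for C1qc, −1.32 to 0.42 for Cfb and −0.13 to 0.24 for Serping1 across strains, −0.14 to 1.5 for Cfb in BL6 and −0.093 to 0.036 for Serping1 in SV129. The cause was not tested.

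With the array number of the titles as a replicate block, 0 complement probe sets passed for hypoxia across strains and for each strain difference. No label says that a number pairs arrays, and differences within hypoxic pairs correlated at −0.026 (BL6 and FVB/N), −0.0422 (BL6 and SV129) and −0.188 (FVB/N and SV129). On the 6 hypoxic arrays with that block, Hc did not pass (1.65, adjusted p = 0.214, for BL6 minus FVB/N and −1.33, adjusted p = 0.288, for FVB/N minus SV129). It passed under the other 21 settings for each of these comparisons. No paired analysis was possible within a strain because its hypoxic and normoxic arrays share no number. Effects that need a normoxic array left out could not be fitted within its strain. The number of all probe sets called for hypoxia across strains, 1016, ran from 3 to 1390 with an array left out and from 1 to 1871 otherwise. Median centring moved the median difference of all probe sets in BL6 to 0.128, against 0.0206. The arrays' number limits what can be seen: the 95% intervals for hypoxia spanned 0.851 to 1.31 as a fold for Serping1 and 0.258 to 1.17 for C5ar1 (1439902_at).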
